A study of Mus musculus with 12 samples.

Results

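The 10 genes described here encode cytosolic heat shock proteins and their main regulator: the small heat shock proteins Cryab and Hspb1, the HSP70 chaperones Hspa1a, Hspa1b and Hspa8, the HSP110 protein Hsph1, the HSP90 chaperones Hsp90aa1 and Hsp90ab1, the J-domain co-chaperone Dnajb1 and the transcription factor Hsf1. They are 10 of 19312 genes in the expression table, all 10 passed the filter on low values, and they were selected by symbol with the knowledge that Cryab, Hspa1b and Hsph1 had lower values in Shank2-mutant mice of this same dataset. Genotype differences of these genes are therefore given as a description, counts past the threshold included, and nothing is drawn from them. Tests are read for memantine, which the choice did not use, and for other chaperone genes.

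Heat shock proteins bind unfolded or aggregating proteins and help them to refold or to be degraded. HSF1 is held inactive in unstressed cells, and when unfolded protein accumulates it binds heat shock elements in the promoters of inducible chaperone genes. Hspa1a and Hspa1b are the classic inducible HSP70 genes, whereas Hspa8 and Hsp90ab1 are made constitutively and are abundant in neurons, and in brain Cryab is known above all from oligodendrocytes and astrocytes.

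RNA was sequenced from the brains of 12 male C57BL/6N mice at postnatal day 25, 1 library per mouse and no pooling. WT mice and mice with a homozygous deletion of Shank2 exons 6 and 7 (KO) received 20 mg/kg memantine, an NMDA receptor blocker, by mouth in 0.1% saccharin, or the 0.1% saccharin vehicle alone, 2 times per day from postnatal day 7 to 21, which gave 4 groups of 3 mice, named by genotype and treatment (KO-Mem, KO-Veh, WT-Mem, WT-Veh). The labels name whole brain and the methods name forebrain without cerebellum and brain stem. Veh-K/W and Mem-K/W set KO against WT mice under each treatment, KO-M/V and WT-M/V set memantine against vehicle within a genotype, and the pooled comparisons use all 12 mice.

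The deposited values are normalized counts, estimated read counts scaled so that mice can be compared, and their sums of 30373849 to 31199251 per mouse do not show the sequencing depth. The median of the positive values below a fixed low cut was 0.872 to 1.126 units per mouse and was taken as about 1 read. The choice of the cut partly sets this median. Estimated counts need not be whole reads, so this scale is rough. By it the lowest value among the 10 genes, 126 for Hspb1, stood for more than 100 reads. Shank2 itself was lower in KO mice by 1.45 ± 0.06 on the log2 scale (SE, 6 against 6 mice), and every KO mouse lay below every WT mouse. Markers of forebrain were present in every mouse. The 5 cerebellar markers summed to 1484 in KO-Veh replicate 3 and to at most 250.01 in the other 11 mice, with Gabra6 at 0 in 6 mice, so genotype differences of the 10 genes are also given without that mouse.

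Promoter sequence is shown first, because heat shock elements are the sites through which HSF1 acts on these genes. RefSeq windows on GRCm38.p6, from 250 bases before to 50 bases after a transcript start, covered 5 of the 10 genes: Hspa1a, Hspa1b, Hsph1, Dnajb1 and Hspb1. Those of Cryab, Hspa8, Hsp90aa1, Hsp90ab1 and Hsf1 were not used here. The element was searched in its 2-unit form, GAANNTTC or TTCNNGAA, each of which reads the same on both strands, and in the longer 3-unit form of 3 alternating GAA and TTC units, which contains the 2-unit form. The 250 bases before the start are printed below 5′ to 3′ on the strand of the gene, with the 2-unit elements in capitals, for the 2 inducible HSP70 genes, Hsph1 and Hspb1, the 4 genes whose windows held one. They lie at chr17:34959239-34959488 (minus strand) for Hspa1b, chr17:34972157-34972406 (minus strand) for Hspa1a, chr5:149636337-149636586 (minus strand) for Hsph1 and chr5:135887669-135887918 (plus strand) for Hspb1.
Hspa1b: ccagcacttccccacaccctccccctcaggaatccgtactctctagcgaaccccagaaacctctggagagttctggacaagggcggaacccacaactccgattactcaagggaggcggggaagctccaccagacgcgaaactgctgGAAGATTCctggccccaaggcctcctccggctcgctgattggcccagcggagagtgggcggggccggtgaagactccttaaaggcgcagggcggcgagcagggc
Hspa1a: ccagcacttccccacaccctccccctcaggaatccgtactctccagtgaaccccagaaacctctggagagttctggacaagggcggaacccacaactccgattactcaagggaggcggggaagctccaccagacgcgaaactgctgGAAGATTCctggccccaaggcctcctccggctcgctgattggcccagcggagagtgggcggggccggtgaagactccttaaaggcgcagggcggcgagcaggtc
Hsph1: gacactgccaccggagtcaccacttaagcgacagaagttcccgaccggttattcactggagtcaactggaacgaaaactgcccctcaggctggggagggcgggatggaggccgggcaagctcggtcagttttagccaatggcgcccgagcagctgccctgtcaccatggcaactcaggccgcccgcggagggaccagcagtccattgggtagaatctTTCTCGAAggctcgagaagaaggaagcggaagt
Hspb1: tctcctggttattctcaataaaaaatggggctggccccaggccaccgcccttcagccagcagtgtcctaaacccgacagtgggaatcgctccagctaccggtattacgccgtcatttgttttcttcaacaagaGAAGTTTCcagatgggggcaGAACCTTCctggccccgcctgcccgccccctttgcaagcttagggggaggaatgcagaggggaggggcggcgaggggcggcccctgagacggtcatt

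In Hspa1a and Hspa1b the element began 104 bases before the start, with a CCAAT box (CCAAT or ATTGG) 67 bases before it, and the printed windows of these neighbouring genes differed at 3 of 250 bases. Hsph1 had 2 windows with different starts. From the start of the printed window a 2-unit element lay 33 bases before and a 3-unit element began 36 bases after. From the other start the same elements lay 54 bases before and 15 bases after. Hspb1 had elements at 117 and 97 bases before the start. Neither Dnajb1 window held either form. Over all 32851 promoter windows, 15.1% held the 2-unit form and 0.603% the 3-unit form, and 37.4% held a CCAAT box. A match is a string of letters and was not tested as a binding site.

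**Figure D1:**
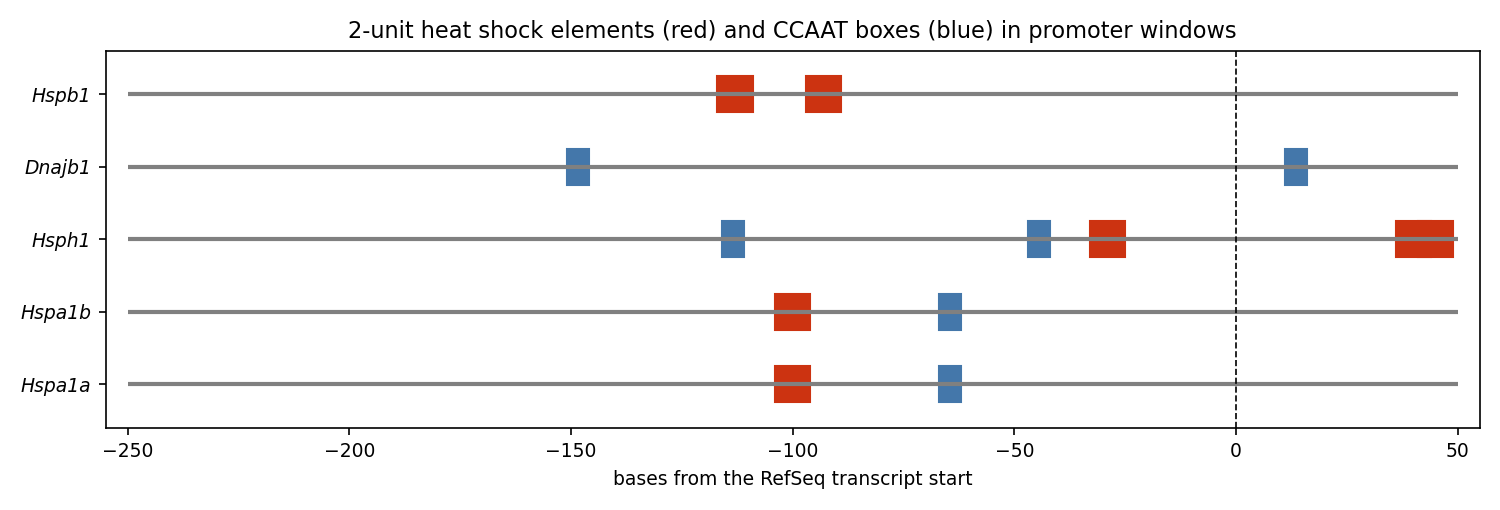
Positions of 2-unit heat shock elements (red) and CCAAT boxes (blue) along the promoter windows of 5 heat shock genes, in bases from the transcript start (dashed line). For Hsph1 and Dnajb1 the first of 2 windows is drawn. Hspa1a and Hspa1b share their layout, with the element 104 bases before the start, Hsph1 carries elements on both sides of the start, and Dnajb1 has none.

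All 10 genes had a lower mean in KO than in WT mice under both treatments. Median log2 fold changes over the 10 genes were −0.306 for Veh-K/W, −0.244 for Mem-K/W and −0.305 with the treatments pooled, while the medians of all genes tested were 0.0017, 0.0022 and 0.0035. Past an adjusted p of 0.05 lay 0 of the 10 genes in Veh-K/W (0.0283% of all genes tested), 0 in Mem-K/W (0.068%) and 8 in the pooled comparison (10.8%), Hsp90aa1 and Hsf1 being the exceptions. Leaving out 1 mouse at a time moved the 8 to between 4 and 8, with 5 left without KO-Veh replicate 3 and 4 without KO-Mem replicate 1 or 2, and moved the 0 of Mem-K/W to 5 without KO-Mem replicate 3. In limma 5 of all genes passed in Veh-K/W and 12 in Mem-K/W. The paper's DESeq2 analysis called far more genes in both, with Cryab among its top downregulated genes under vehicle. Whether Cryab passed under vehicle thus depended on the method. Every KO mouse lay below every WT mouse for 8 genes in Veh-K/W (10.7% of all genes), 5 in Mem-K/W (13.5%) and 3 over the 6 KO and 6 WT mice (2.2%), namely Cryab, Hspa8 and Hsph1. Since the genes were chosen on this difference, nothing about them is read from these counts. In bulk tissue, fewer cells of a type and less RNA per cell cannot be told apart.

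**Figure D2:**
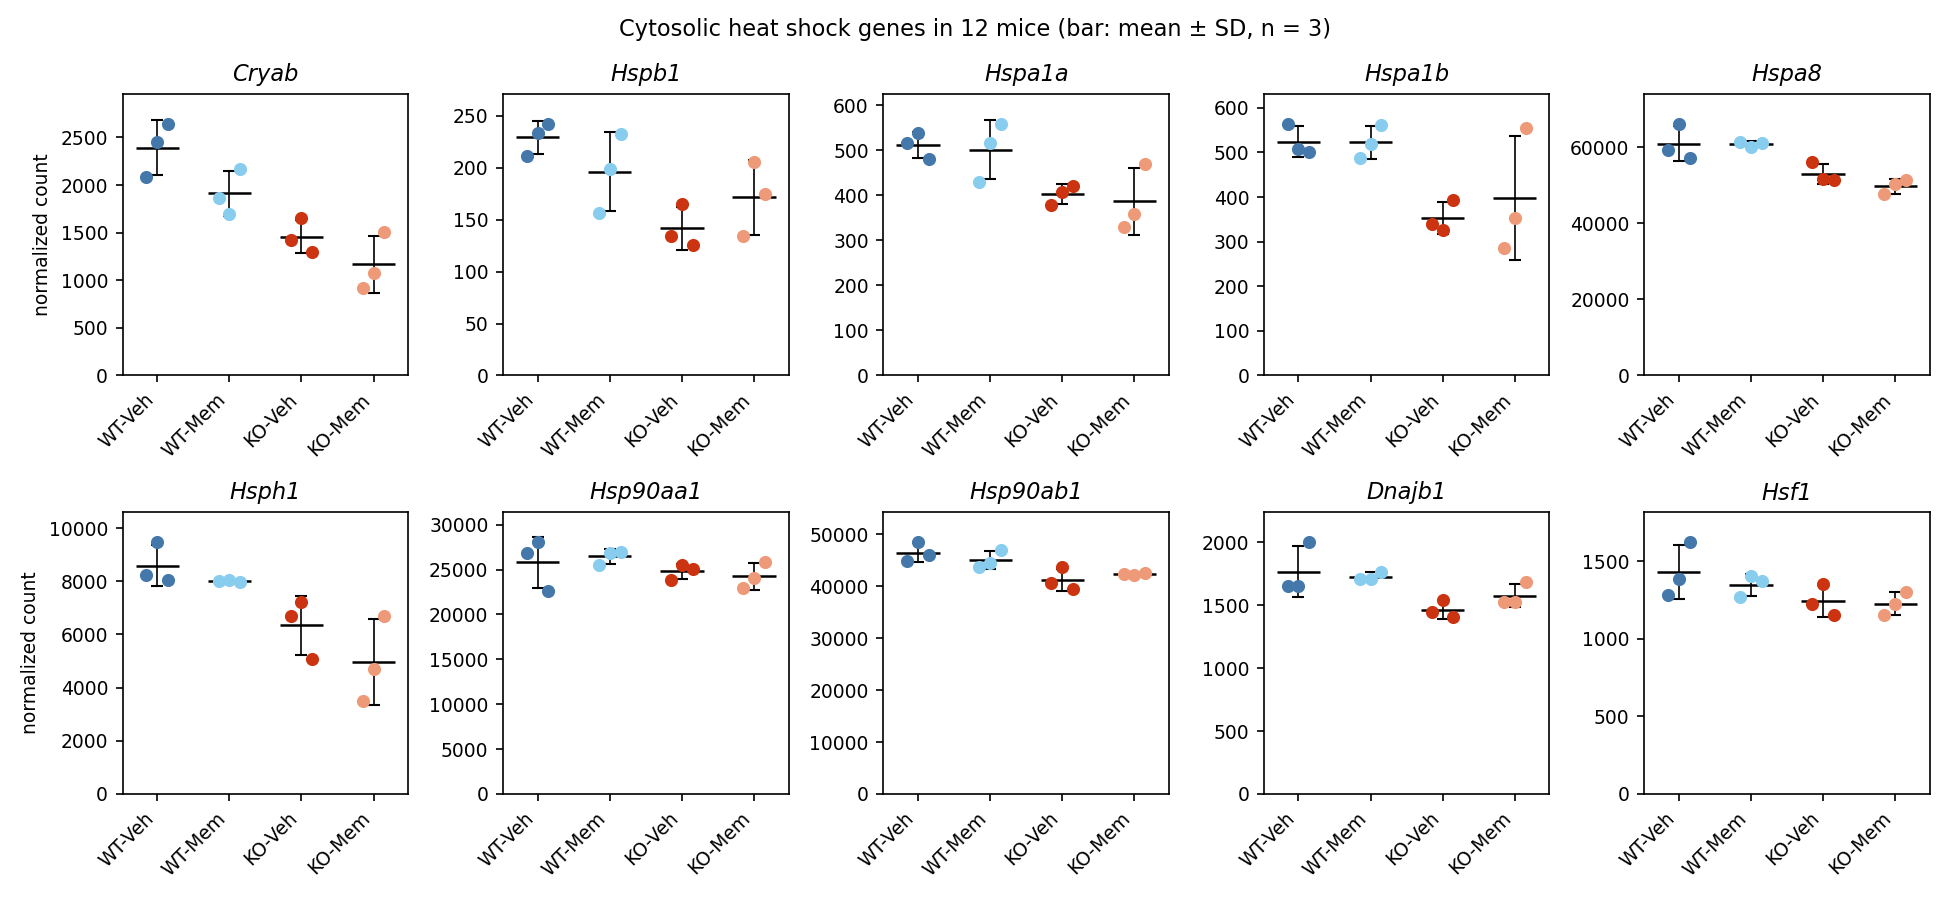
Normalized counts of the 10 heat shock genes in each mouse, by group, with the mean (horizontal bar) and SD (n = 3); each axis starts at 0. Cryab, Hspa8 and Hsph1 separate all 6 KO from all 6 WT mice, and KO-Mem replicate 3 is the highest KO-Mem mouse in 9 of the 10 panels.

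Cryab, the small heat shock protein alphaB-crystallin, lies at chr9:50751325-50756636 (GRCm38, plus strand). WT mice had normalized counts of 2083, 2455 and 2644 with vehicle and of 1861, 1700.8 and 2172 with memantine. KO mice had 1428, 1649 and 1300.7 with vehicle and 924, 1076 and 1505 with memantine. The highest KO value, 1649, lay just under the lowest WT value, 1700.8. KO and WT mice differed by −0.71 ± 0.11 on the log2 scale (SE, 3 against 3 mice) in Veh-K/W and by −0.73 ± 0.16 in Mem-K/W. With treatments pooled the difference was −0.72 ± 0.11, a KO to WT ratio of 0.606, and −0.69 without KO-Veh replicate 3. Cryab overlaps Hspb2 on the opposite strand, and Hspb2 had values near the filter limit.

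Hspb1, the small heat shock protein HSP27 (chr5:135887919-135889563, plus strand), was the lowest of the 10 genes in read number. WT mice had 211, 234 and 242 with vehicle and 157, 199 and 233 with memantine. KO mice had 135, 165 and 126 with vehicle and 134, 206 and 174 with memantine. The genotypes were apart under vehicle and overlapped under memantine. Genotype differences were −0.70 ± 0.14 in Veh-K/W and −0.20 ± 0.20 in Mem-K/W (log2, SE).

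The inducible HSP70 genes Hspa1b (chr17:34956436-34959238) and Hspa1a (chr17:34969190-34972156) stand side by side on the minus strand. Hspa1b had 564, 508 and 501 in vehicle-treated and 487, 519 and 562 in memantine-treated WT mice, and 339, 326 and 393 in vehicle-treated and 285, 354 and 555 in memantine-treated KO mice. Hspa1a had 516, 539 and 482 in vehicle-treated and 430.6, 515 and 559 in memantine-treated WT mice, and 378, 407 and 421 in vehicle-treated and 329.6, 359 and 470.5 in memantine-treated KO mice. For both genes 5 of the 6 KO mice lay below all WT mice, and KO-Mem replicate 3 lay inside the WT range. Hspa1b differed by −0.57 ± 0.10 on the log2 scale in Veh-K/W and −0.45 ± 0.20 in Mem-K/W, and Hspa1a by −0.35 ± 0.09 and −0.38 ± 0.15.

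Reads of these 2 genes are hard to tell apart. Their coding sequences were identical at 1918 of 1926 aligned bases (99.6%), and 63.8% of the 31-base words of the Hspa1a transcript also occurred in Hspa1b. The split between them is therefore uncertain, and their sum is the safer quantity. With vehicle the sum was 1037 ± 49.7 normalized counts (SD, n = 3) in WT and 755 ± 51.9 in KO mice, and with memantine 1024 ± 102 and 784 ± 214. In a fit of the sum, added after the data were seen, the log2 difference was −0.46 ± 0.08 (SE) for Veh-K/W and −0.41 ± 0.17 for Mem-K/W. Hspa8 shared no 31-base word with either gene.

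Hspa8, the constitutive HSP70 (chr9:40800984-40810087, plus strand), had the highest level per transcript length. WT mice had 59352, 66197 and 57268 with vehicle and 61451, 59966 and 61242 with memantine, and KO mice 56034, 51569 and 51412.5 with vehicle and 47614, 50379.8 and 51436 with memantine. All 6 KO mice lay below all 6 WT mice, by a narrow margin in the vehicle groups. Genotype differences were −0.20 ± 0.07 in Veh-K/W and −0.29 ± 0.05 in Mem-K/W, and the pooled value of −0.24 ± 0.04 was −0.24 also without KO-Veh replicate 3. The gene contains the small nucleolar RNA genes Snord14c, Snord14d and Snord14e.

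Hsph1, the HSP110 protein that exchanges nucleotide on HSP70 (chr5:149614287-149636376, minus strand), varied widely between KO mice. WT mice had 8236, 9468 and 8040.0 with vehicle and 8024, 8058 and 7956 with memantine. KO mice had 6691, 7232 and 5090.5 with vehicle and 3486, 4693 and 6677 with memantine. All KO mice lay below all WT mice, and the SD was 581 over the 6 WT and 1453 over the 6 KO mice. Veh-K/W was −0.45 ± 0.12 and Mem-K/W −0.75 ± 0.18 on the log2 scale. Leaving out KO-Veh replicate 3 moved the Veh-K/W value to −0.30, and leaving out KO-Mem replicate 3 moved the Mem-K/W value to −0.99.

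The HSP90 genes, whose products mature kinases and steroid receptors, differed least. Hsp90ab1 (chr17:45567775-45573271, minus strand) had a mean of 45723 ± 1753 (SD) over 6 WT and 41778 ± 1513 over 6 KO mice. Only KO-Veh replicate 2, at 43620.9, kept the genotypes from being apart, the lowest WT value being 43615.6. Its log2 differences were −0.17 ± 0.07 in Veh-K/W and −0.09 ± 0.05 in Mem-K/W. Hsp90aa1, the inducible HSP90 (chr12:110690605-110702728, minus strand), had a mean of 26143 ± 1911 in WT and 24541 ± 1137 in KO mice, and all 6 KO mice lay inside the WT range, whose lowest value of 22597 came from WT-Veh replicate 3. Its log2 fold changes were −0.05 ± 0.08 and −0.13 ± 0.06, and the Veh-K/W value was −0.14 without that mouse and 0.01 without WT-Veh replicate 2.

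Dnajb1, the J-domain partner of HSP70 known as HSP40 (chr8:83608193-83612653, plus strand), had 1649.7, 1649 and 2001 in vehicle-treated and 1708, 1709 and 1766 in memantine-treated WT mice, and 1448, 1545 and 1403 in vehicle-treated and 1523, 1527 and 1681 in memantine-treated KO mice. KO-Mem replicate 3 alone entered the WT range. Genotype differences were −0.26 ± 0.09 in Veh-K/W and −0.13 ± 0.07 in Mem-K/W. Hsf1, which encodes the transcription factor (chr15:76477422-76501913, plus strand), ranged from 1269.5 to 1621 in WT and from 1153.3 to 1352 in KO mice, and the genotypes overlapped. Its log2 fold changes were −0.20 ± 0.10 and −0.14 ± 0.08. HSF1 is known to be controlled mainly on the protein, and the values here are of its mRNA.

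Per kilobase of the longest coding transcript, mean levels over the 6 WT mice were 25444 normalized counts for Hspa8, 18144 for Hsp90ab1, 7968 for Hsp90aa1, 2182 for Hsph1, 1927 for Cryab, 660.03 for Hsf1, 583 for Dnajb1, 229 for Hspb1, 187 for Hspa1b and 171 for Hspa1a. The constitutive Hspa8 and Hsp90ab1 thus stood at the top, the inducible Hsp90aa1 came next, and the inducible HSP70 genes stood at the bottom with Hspb1. The ranges of single WT mice overlapped for the neighbours Hsph1 and Cryab, for Hsf1 and Dnajb1, and for Hspb1, Hspa1b and Hspa1a, so that their order is not firm.

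KO mice differed among themselves. Averaged over the 10 genes, the log2 difference from the WT mean was −0.343, −0.244 and −0.391 in the KO-Veh mice and −0.569, −0.376 and −0.160 in KO-Mem replicates 1, 2 and 3. Of the 10 genes, 9, 6 and 9 lay below every WT mouse in the KO-Veh mice, and 9, 8 and 4 in the KO-Mem mice. KO-Mem replicate 3 was thus nearest to the WT mice and KO-Mem replicate 1 farthest. Without KO-Mem replicate 3 the Mem-K/W log2 fold change was −0.93 for Cryab, −0.71 for Hspa1b and −0.53 for Hspa1a. Without KO-Veh replicate 3 the Veh-K/W value was −0.61 for Hspb1, −0.65 for Hspa1b and −0.38 for Hspa1a. It was −0.23 for Dnajb1, −0.15 for Hsf1, −0.14 for Hsp90ab1 and −0.06 for Hsp90aa1.

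**Figure D3:**
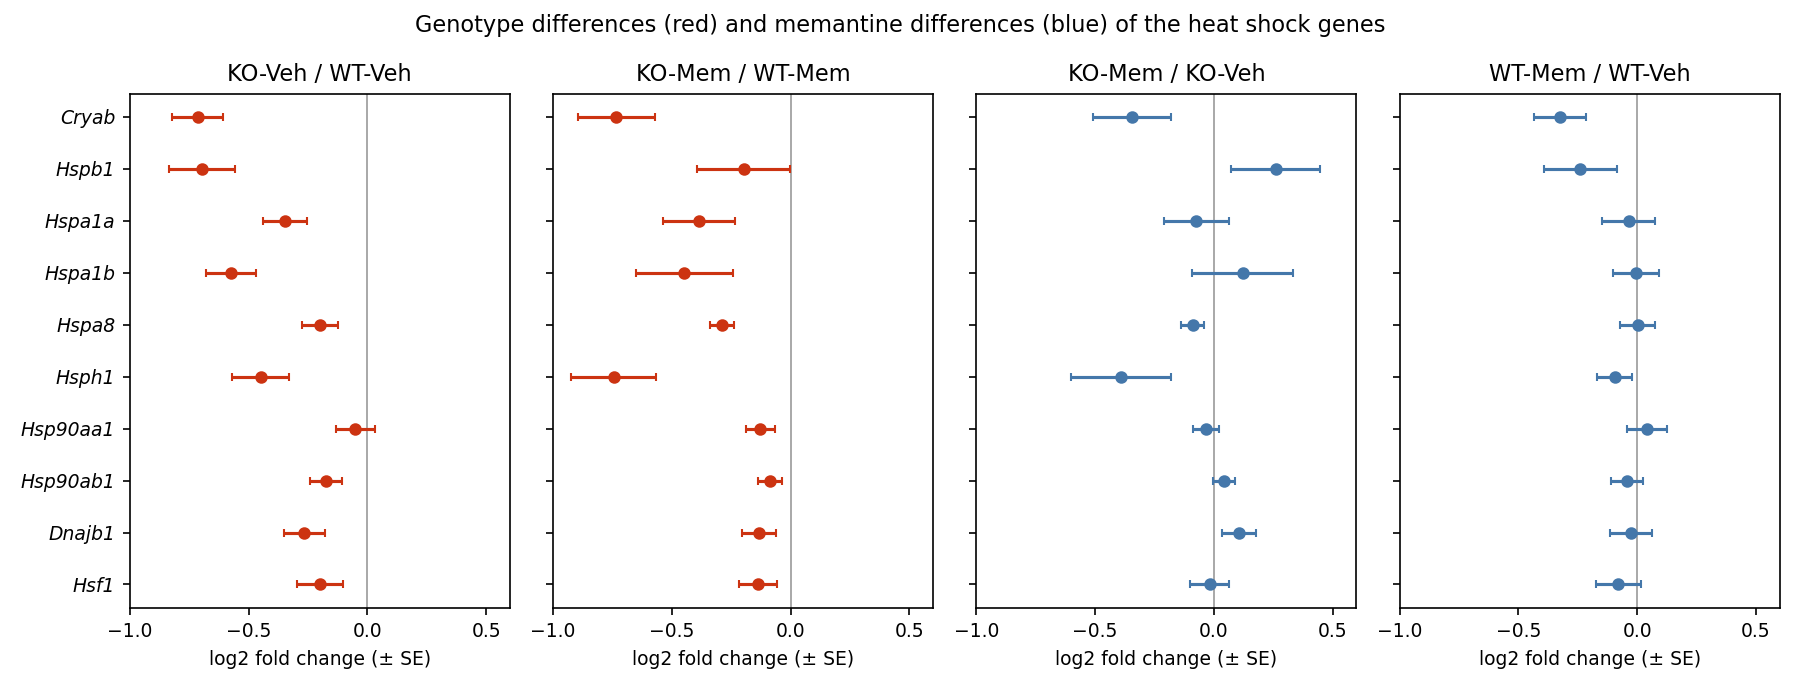
Log2 fold changes (± SE, 3 against 3 mice) of the 10 genes between genotypes under vehicle and memantine (red) and between treatments in KO and WT mice (blue). All genotype values lie below 0, from −0.75 to −0.05, and the memantine values lie on both sides of 0, from −0.39 to 0.26.

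Whether early memantine altered these genes was tested within each genotype, and 0 of the 10 genes passed in either. At an unadjusted limma p under 0.05 stood 0 of 10 in KO-M/V and 1, Cryab, in each of WT-M/V and the pooled memantine comparison. In limma with Benjamini-Hochberg adjustment over all genes, KO-M/V called 0% of 17707 genes and WT-M/V 0.0114% of 17564. The paper's DESeq2 analysis reported small numbers of genes for both, each larger than limma called here. The pooled memantine comparison called 0% of 17655 genes, with 1519 at an unadjusted p under 0.05 and a smallest adjusted p of 0.374, and KO-M/V had 1573 such genes. Memantine and vehicle mice overlapped for all 10 genes in both genotypes, where 13.9% of all genes in KO mice and 9.34% in WT mice did not overlap. The median log2 fold change over the 10 genes was −0.023 in the pooled comparison and 0.0008 over all genes.

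Cryab had lower means under memantine in both genotypes, and the difference did not pass. In KO-M/V its log2 fold change was −0.34 ± 0.16 (limma adjusted p = 0.563), and for WT-M/V it was −0.33 ± 0.11 (limma adjusted p = 0.978). Pooled over genotypes it was −0.33, with a 95% interval of −0.56 to −0.11, an unadjusted limma p of 0.00617 and an adjusted p of 0.437. WT means were 2394 ± 286 with vehicle and 1911 ± 239.8 with memantine, and KO means 1459 ± 176 and 1168 ± 302 (SD, n = 3). Markers of several cell types also had negative pooled memantine values with 0 past the threshold. Below 0 lay all 12 mature oligodendrocyte markers (median −0.228), all 6 mural (−0.236), all 7 microglial (−0.116) and all 5 precursor markers (−0.075). The same held for all 5 choroid plexus (−0.204), all 5 erythrocyte (−0.639) and all 5 cerebellar markers (−0.642). In other lists 7 of 9 astrocyte (−0.032), 4 of 7 endothelial (−0.075), 2 of 7 neuronal (0.034) and 2 of 6 forebrain markers (0.02) lay below 0. The cerebellar sum was highest, at 1484, in a vehicle mouse, KO-Veh replicate 3. In WT-M/V 2 of 4 cerebellar markers tested lay below 0 (median −0.05). The part of any of these cell types in the Cryab values was not tested.

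Hsph1 had a log2 fold change of −0.39 ± 0.21 in KO mice (limma adjusted p = 0.588) and −0.10 ± 0.07 in WT mice. Hspb1 had 0.26 ± 0.19 in KO and −0.24 ± 0.15 in WT mice. For the sum of Hspa1a and Hspa1b the pooled memantine difference was 0.00, with a 95% interval of −0.21 to 0.21. Hsp90ab1 had the narrowest pooled interval, −0.09 to 0.08, followed by Hspa8 with −0.14 to 0.05. The interval of Hsph1 was wider, from −0.51 to 0.03.

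Whether the genotype difference itself depended on treatment was tested by the interaction, which called 0% of 17655 genes, with 840 at an unadjusted p under 0.05 and a smallest adjusted p of 0.947. The interaction was 0.50 ± 0.25 for Hspb1 (limma unadjusted p = 0.067) and −0.30 ± 0.25 for Hsph1. For Cryab it was −0.02, with a 95% interval of −0.49 to 0.45. The larger Mem-K/W value of Hsph1 and the smaller one of Hspb1 were therefore not shown to differ from their Veh-K/W values.

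Other chaperone genes outside the ER were examined as lists, with 57 genes tested outside the 10. Most are cytosolic, and the mitochondrial chaperonins Hspd1 and Hspe1 are included. In the pooled genotype comparison 12 fell and 1 rose, where 10.8% of all genes passed, 1044 down and 863 up of 17655. In each of the other 6 comparisons 0 passed in limma. At an unadjusted limma p under 0.05 stood 16 in Veh-K/W (2548 of all 17671 genes), 19 in Mem-K/W (3702 of 17646), 4 in KO-M/V (1573 of 17707), 3 in WT-M/V (697 of 17564), 4 for pooled memantine (1519 of 17655) and 0 for the interaction (840 of 17655). The 13 became 8 without WT-Veh replicate 2, without KO-Veh replicate 3 or without KO-Mem replicate 1 or 2, and in Mem-K/W 12 passed without KO-Mem replicate 3, where 1911 of all genes passed. Fkbp4, Fkbp5, Stip1, Tomm34, Dnaja4, Dnajb2 and Hspe1 passed in all 12 pooled refits with 1 mouse left out, Ppid in 11, Ahsa1 in 8, Bag1 in 6, Dnajb5 in 5, and Chordc1 and Hspb8 in 4. HSP90 co-chaperones held most of them: 6 of 13 fell and 1 rose, with a median of −0.142. Stip1, the adaptor that joins HSP70 to HSP90, fell by 0.30 ± 0.06 on the log2 scale (limma adjusted p = 0.0116). Fkbp4, an immunophilin of steroid receptor complexes, fell by 0.30 ± 0.06 (limma adjusted p = 0.0105), Ppid, a cyclophilin, fell by 0.36 ± 0.08 (adjusted p = 0.0198), and Chordc1 fell by 0.33 ± 0.10 (adjusted p = 0.0431). Tomm34 fell by 0.26 ± 0.05 and Ahsa1, which stimulates the HSP90 ATPase, fell by 0.17 ± 0.04.

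Fkbp5, an HSP90 immunophilin and a well-known glucocorticoid receptor target, was the 1 gene that rose, by 0.65 ± 0.12 (limma adjusted p = 0.009), against the direction of its list. It also had the smallest memantine p of its list, at 0.50 ± 0.12 pooled over genotypes, and did not pass there (limma adjusted p = 0.374).

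Among 11 J-domain co-chaperones 3 fell and 0 rose: Dnaja4 by 0.33 ± 0.06, Dnajb2 by 0.28 ± 0.06 and Dnajb5 by 0.47 ± 0.13 on the log2 scale. The list's median was 0.023, so the other members lay around 0. A list of 14 genes held the HSP70 and HSP110 families, nucleotide exchange factors and the HSP70 co-chaperones St13 and Stub1. Of these only Bag1 passed, falling by 0.25 ± 0.06, and the median was −0.091. Hspa12b was next at −0.29 ± 0.09 (limma adjusted p = 0.0591), and Hspa4l had the smallest memantine p of the list at −0.11 ± 0.06.

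Of 7 genes listed by name as other small heat shock proteins 4 could be tested, and Hspb8, a partner of the exchange factor Bag3 in chaperone-assisted autophagy, fell by 0.29 ± 0.09 (limma adjusted p = 0.0494). Hspb6 had a positive value of 0.26 ± 0.10 that did not pass (adjusted p = 0.113), and Hspb11 had the smallest memantine p at −0.15 ± 0.14. Among 10 chaperonin genes tested, the mitochondrial Hspe1 fell by 0.27 ± 0.06 while its partner Hspd1 had −0.13 ± 0.05 (limma adjusted p = 0.0748). None of the 5 other heat shock factors and regulators passed, and Hikeshi, the nuclear import carrier of HSP70, had −0.20 ± 0.09 and Hsf2 0.11 ± 0.06, while Hsf5 had the smallest memantine p at 0.25 ± 0.27.

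ER chaperones serve as the comparison from another compartment. Of 15 genes 12 fell and 0 rose in KO mice, where 10.8% of all genes passed, with a median of −0.468 and a range of −0.743 to 0.012. Without KO-Veh replicate 3 the number that fell was 7, with a median of −0.419, and 694 of all genes passed in either direction. Calr fell by 0.57 ± 0.10 (limma adjusted p = 0.00675), Hyou1, the ER relative of Hsph1, fell by 0.28 ± 0.06 and Hspa5, the ER relative of Hspa8, fell by 0.47 ± 0.13. Calr also had the smallest memantine p of this list, at −0.25 ± 0.10, and did not pass (limma adjusted p = 0.516). These 12 genes and the 10 cytosolic genes come from the same mice, and whether the compartments differ was not tested.

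**Figure D4:**
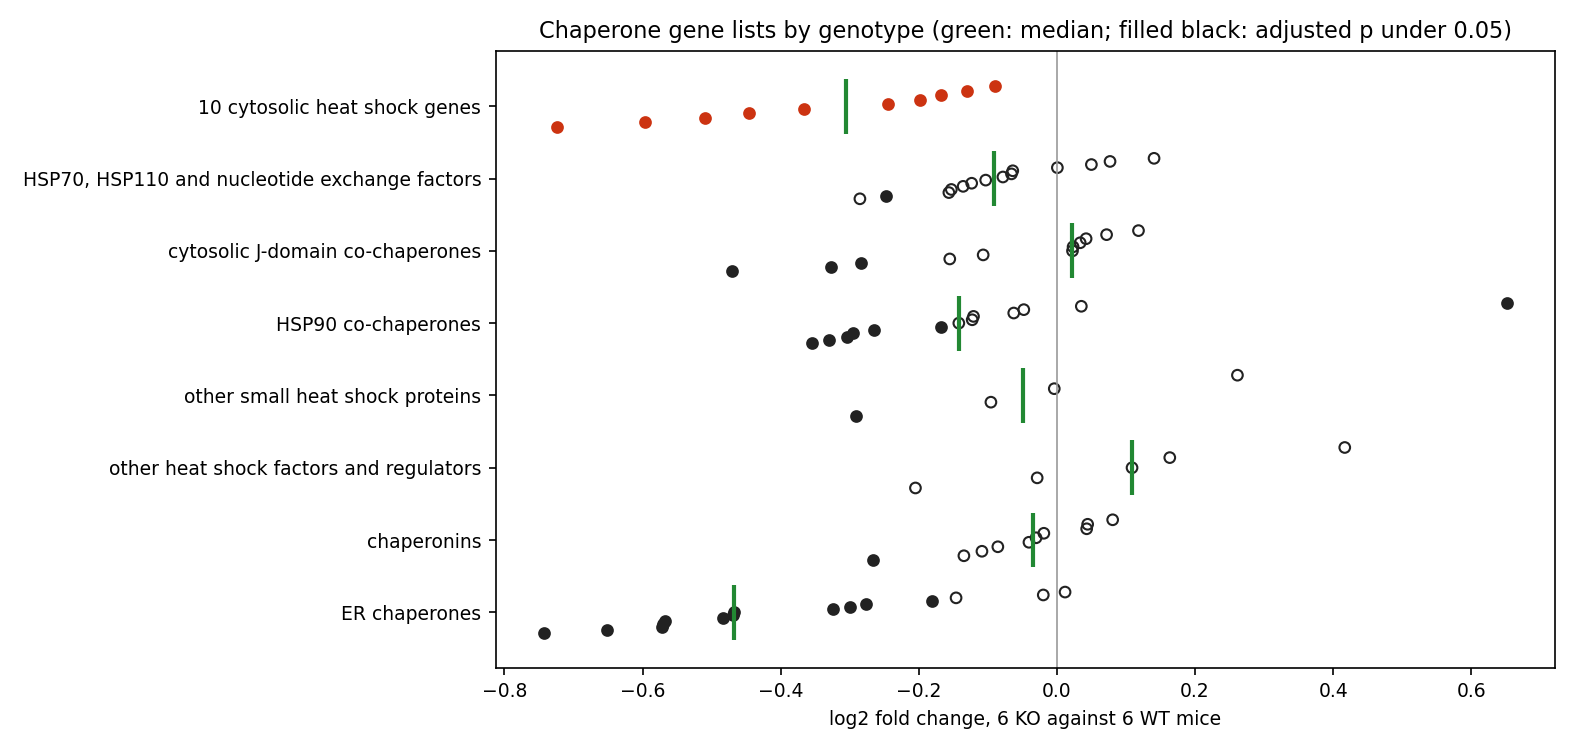
Log2 fold change of each gene, 6 KO against 6 WT mice, for the 10 selected genes (red, no test) and 7 chaperone lists, with list medians in green and genes past an adjusted p of 0.05 filled in black. HSP90 co-chaperones hold 6 filled points below 0 and Fkbp5 at 0.65, and ER chaperones hold 12 filled points, all below 0.

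A pair of genes known to respond to temperature in the opposite direction to heat shock genes, the cold-inducible RNA-binding proteins Cirbp and Rbm3, differed between the same mice. With vehicle Cirbp was 1349 ± 135 (SD, n = 3) in WT and 1917 ± 218 in KO mice, and with memantine 1435 ± 191 and 2381 ± 449.99. Rbm3 was 2086 ± 399.8 and 3171 ± 390.1 with vehicle, and 2437 ± 339 and 3765 ± 434 with memantine. Every KO mouse lay above every WT mouse for both genes, and in the pooled comparison Cirbp rose by 0.61 ± 0.09 (limma adjusted p = 0.00492) and Rbm3 by 0.62 ± 0.10 (limma adjusted p = 0.00485) on the log2 scale. Both passed in all 12 refits with 1 mouse left out, and without KO-Veh replicate 3 the values were 0.59 and 0.58. In the pooled comparison with all mice 10.8% of all genes passed, 863 of 17655 upward. The share of all genes with every KO mouse above every WT mouse was not counted.

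With group means removed, the Pearson correlation over the 12 mice with Cirbp was −0.82 for Hsph1, −0.71 for Hspa8, −0.47 for Cryab and −0.40 for Hspa1b, and it was negative for all 10 genes, with a median of −0.29. With Rbm3 it was negative for 9 of 10, with a median of −0.244. KO-Mem replicate 1 had the highest Cirbp, 2861, and the lowest Hsph1, 3486, whereas KO-Mem replicate 3 had the lowest Cirbp of its group, 1968, and the highest Hsph1 of its group, 6677. In WT-Mem mice the order was the other way, since replicate 3 had the highest Cirbp, 1644, and the highest value of its group for 7 of the 10 genes. Leaving out the KO-Mem mice, a choice made after seeing the data, brought the median correlation with Cirbp to 0.079 with 4 of the 10 genes below 0, and that with Rbm3 to −0.048 with 6 below 0, while Hsph1 and Hspa8 had −0.636 and −0.663 with Cirbp over the 9 mice. Leaving out the WT-Veh, WT-Mem or KO-Veh mice instead gave median correlations with Cirbp of −0.412, −0.547 and −0.408. In these, 9, 10 and 9 of the 10 genes lay below 0. The sign of the correlation with Cirbp thus turned for 6 of the 10 genes when the KO-Mem mice were left out. These correlations are descriptions over libraries that share 1 normalization. The part of what moves Cirbp and Rbm3 in the lower heat shock gene values was not tested.

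**Figure D5:**
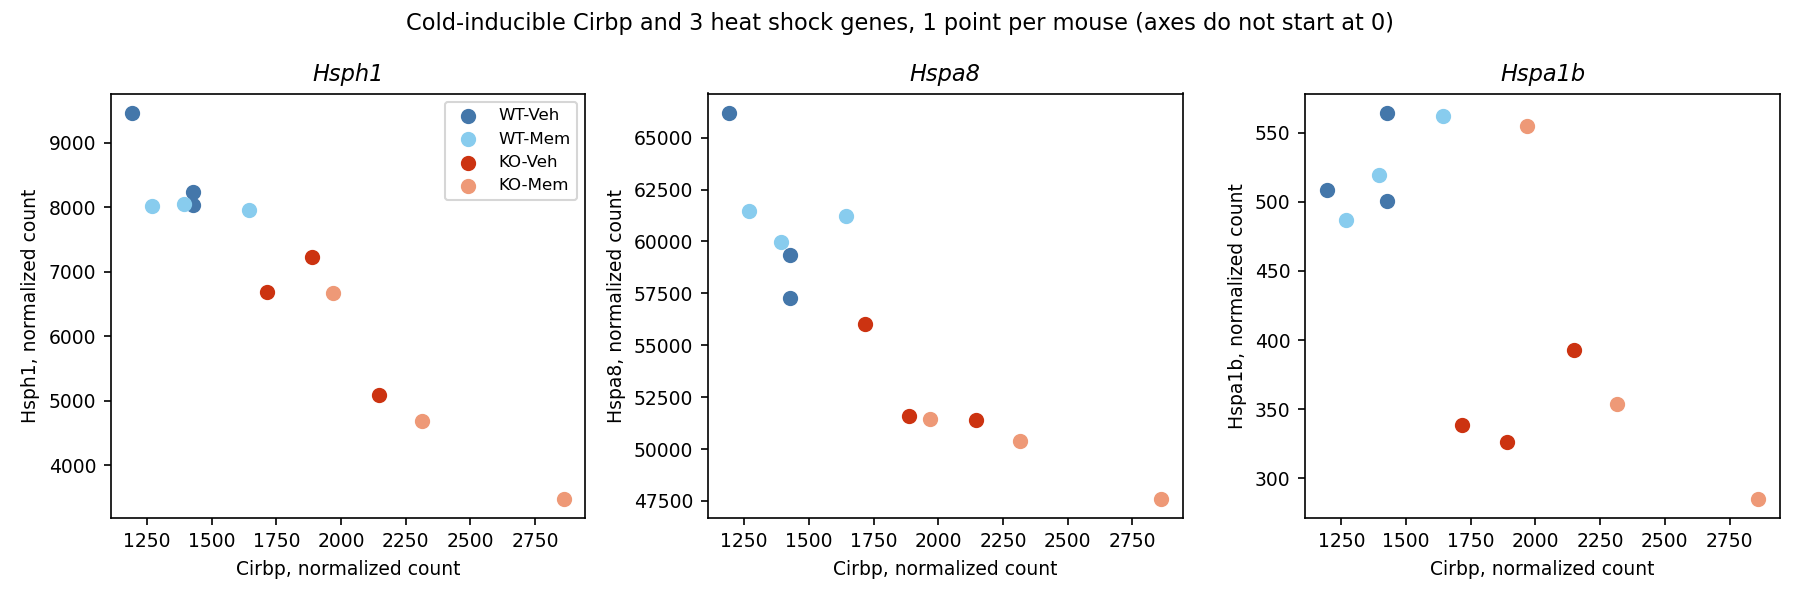
Normalized counts of Cirbp against Hsph1, Hspa8 and Hspa1b, 1 point per mouse, coloured by group; axes do not start at 0. The KO-Mem mouse with the highest Cirbp, 2861, has the lowest value of all 3 heat shock genes.

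The 10 genes moved together over mice to different degrees. Over the 45 pairs the median correlation was 0.389 once group means were removed, and 40 pairs were above 0. Hspa1a and Hspa1b correlated at 0.859, beside the shared sequence described above, and Cryab and Hsph1 at 0.797. The genes most like Cryab among 12877 genes with a mean of at least 100, over the 12 mice, were Brk1 (r = 0.988), Glt8d1 (0.987), Taldo1 (0.983), Ly6e (0.981) and Pex6 (0.981). With group means removed they were Taldo1 (0.988), Atad3a (0.966), Tmem109 (0.966), Cdr2 (0.963) and Ndufs5 (0.962). For Hspa1b they were Ephb1 (0.922), Cds1 (0.917), Hspa1a (0.914), Rubcn (0.914) and Gm9803 (0.913), and with group means removed Gss (0.968), Ednrb (0.965), Fam107b (0.955), Caap1 (0.938) and Sfswap (0.933). Each list is the top of 12877 correlations over 12 mice, and nothing about shared function is read from them.

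Cell type markers were set beside the pooled genotype difference as counts, in a comparison that called 10.8% of all genes. Of 12 mature oligodendrocyte markers 8 fell in KO mice, with a median of −0.295, and their summed level was 364745 to 442787 in vehicle-treated and 324846 to 380054 in memantine-treated WT mice, and 318773 to 336715 in vehicle-treated and 260912 to 308048 in memantine-treated KO mice. Medians of the sums ran from WT-Veh over WT-Mem and KO-Veh to KO-Mem, the order of the Cryab group means, and the WT-Mem and KO-Veh sums overlapped. Medians of the mural, microglial and endothelial sums ran in this order too, and those of the other cell type and region lists did not. Of the astrocyte markers 3 of 9 fell, of the endothelial 4 of 7, of the mural 3 of 6, of the oligodendrocyte precursor 2 of 5, of the microglial 1 of 7 and of the erythrocyte markers 4 of 5, with medians of −0.124, −0.234, −0.264, −0.258, −0.220 and −0.780. Of 7 neuronal markers 1 rose, and 0 of 6 forebrain, 0 of 5 cerebellar and 0 of 5 choroid plexus markers passed in limma. Without KO-Veh replicate 3 the numbers that fell were 6 oligodendrocyte, 2 astrocyte, 1 endothelial, 2 mural, 1 precursor, 0 microglial and 2 erythrocyte markers, and 0 neuronal markers rose, with 694 of all genes passing. The part of these cell types in the lower heat shock gene values was not tested.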

How the data were processed

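RNA from 12 mice, 3 per group, was poly-A selected and sequenced with paired ends. The authors quantified transcripts with Salmon (1.1.0 in the submitters' processing notes) by quasi-mapping to GRCm38, corrected for GC bias, summed them to genes with tximport and deposited the signal as DESeq2-normalized estimated counts. These are not whole numbers, and raw depth is not in the table. Groups and replicate numbers came from the labels. Of 19312 genes, 19295 matched GENCODE M21, from which gene positions and transcript lengths were taken.

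Values were analysed as log2(value + 1) with limma 3.58.1 in R 4.3.3 (trended variance), on genes with a mean of at least 10 over the mice of each fit, with Benjamini-Hochberg adjustment over all genes and a threshold of 0.05. The fits were tested on simulated data. P-values set a difference between groups against the spread between mice, with the variance of each gene drawn towards the trend over all genes. Fold changes are on the log2(value + 1) scale. The 10 genes, the lists and the tests were chosen with earlier results of these data known. Other chaperone genes were named if past the threshold, among the 2 smallest genotype p-values of their list or with its smallest memantine p. Likeness was Pearson correlation of log2 values over genes with a mean of at least 100. Alternatives were pseudocounts of 0.5 and 5, no filter or a mean of 50, no variance trend, rescaling, a replicate block, all 12 mice in one fit and each mouse left out. Protein sequences were not used here.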

Additional observations from a re-analysis of the deposited data

Results flagged for a closer look

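For the 6 mice of each genotype, 20 sets of 6 values were examined for a single mouse far from the others, and 2 stood out by Dixon's criterion for 6 samples. Hsph1 in WT-Veh replicate 2 was 9468 (9467.6), the highest of the 6 WT mice, and its gap to the next mouse was 0.815 of the WT range. Dnajb1 in WT-Veh replicate 3 was 2001 (2000.55), the highest of the 6 WT mice, with a gap of 0.667 of the range. Chance flags about 1 in 20 such sets.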

How the results depend on the processing

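Of 544 member log2 fold changes recomputed under settings that kept all mice, 539 counted as unchanged. For memantine and interaction values this meant the same direction and the same side of the threshold. For genotype values it meant a shift smaller than the residual SD of the gene, and the side of the threshold was not part of the rule. All 142 refits of Mem-K/W and all 192 of pooled genotype stayed below 0, as did 141 of 142 for Veh-K/W, Hsp90aa1 without WT-Veh replicate 2 being the exception (0.0114). With all 12 mice in one fit, 3 of the 10 genes and 4 pathway genes passed in Mem-K/W (0 of each in the fit of 6 mice), where 636 instead of 12 of all genes passed. Without the variance trend, 4 of the 10 genes and 7 pathway genes passed in the pooled genotype comparison (8 and 13), with 894 instead of 1907 of all genes. Leaving out each mouse gave 0 to 1 of the 10 genes for Veh-K/W (1 without KO-Veh replicate 2), 0 to 5 for Mem-K/W (5 without KO-Mem replicate 3) and 4 to 8 for pooled genotype (4 without KO-Mem replicate 1 or 2, 5 without WT-Veh replicate 2, WT-Mem replicate 2 or 3, or KO-Veh replicate 1 or 3), and for pathway genes 0 to 12 in Mem-K/W (12 without KO-Mem replicate 3) and 8 to 15 in pooled genotype (8 without WT-Veh replicate 2, KO-Veh replicate 3 or KO-Mem replicate 1 or 2). The cause was not tested.

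Besides that Hsp90aa1 value, signs that turned were all of uncalled memantine or interaction values. Rescaling gave Hspa8 −0.0037 in WT-M/V. Summing Hspa1a and Hspa1b, chosen after seeing the data, gave 0.0229 in KO-M/V, 0.001 for pooled memantine and 0.0438 for the interaction where Hspa1a alone was negative, and −0.4579 in Veh-K/W. With 1 mouse left out, KO-M/V ran from −0.2239 to 0.0322 for Hspa1a, −0.1458 to 0.3324 for Hspa1b, −0.0813 to 0.0074 for Hsp90aa1 and −0.0694 to 0.0448 for Hsf1. WT-M/V ran from −0.1185 to 0.0694 for Hspa1a, −0.0589 to 0.0482 for Hspa1b, −0.042 to 0.0625 for Hspa8, −0.0513 to 0.1046 for Hsp90aa1, −0.0727 to 0.0668 for Dnajb1 and −0.1543 to 0.0143 for Hsf1. Pooled memantine ran from −0.0679 to 0.1446 for Hspa1b, −0.0415 to 0.0277 for Hsp90aa1, −0.02 to 0.0171 for Hsp90ab1 and −0.0806 to 0.1049 for Hspb1. The interaction ran from −0.2171 to 0.1348 for Cryab, −0.1875 to 0.0685 for Hspa1a, −0.1401 to 0.3381 for Hspa1b, −0.1383 to 0.0175 for Hsp90aa1 and −0.0318 to 0.1368 for Hsf1.

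Replicate numbers did not pair the mice: same-numbered mice correlated at −0.33 to 0.22. With a replicate block, 7 of the 10 genes and 11 pathway genes passed in the pooled genotype comparison. By Spearman correlation, 3 and 2 of the 5 genes most like Cryab and 0 and 1 of those most like Hspa1b were the same, on values and on deviations from group means.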
